A study of Arabidopsis thaliana with 9 samples.

Results

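ATG8 is a small ubiquitin-like protein that is attached to the lipid of the autophagosome membrane, and Arabidopsis carries 9 genes for it, ATG8A to ATG8I. The 9 genes were taken by locus identifier from a table of 33473 listed genes, and all 9 were found. The table came from a study of the first minute of high light in Arabidopsis thaliana. Material labelled as shoot, of the accession Col-0, was harvested at the age of 21 days. All plants had been raised at 23 °C in constant light of 50 µmol m-2 s-1. The groups had spent 0 s (the control), 20 s or 60 s under 1000 µmol m-2 s-1 at 21 °C when the pots went into liquid nitrogen. According to the labels there were 3 pools of leaves per exposure, each from at least 30 plants, which makes 9 samples. The labels name no mutant, transgene or chemical for any group.

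The table holds the authors' FPKM, a count of fragments made relative to transcript length and library size. It gives a single value for each gene at each exposure. No value of a single pool was analysed here, so none of the differences below has an error, a replicate check or a test, and "higher" and "lower" describe the authors' values only. The number of reads behind each value is unknown. Over all genes the FPKM added up to 817000, 829701 and 858218 at 0, 20 and 60 s. Markers fixed for 4 tissues gave a check of the label. The 5 leaf markers lay between 541 and 13889 FPKM, whereas 5 root, 4 flower and 3 seed markers did not exceed 0.277, 0.329 and 1.01 FPKM.

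The new ATG8 protein is trimmed at its end by the protease ATG4, which exposes a glycine. ATG7 activates that glycine, ATG3 carries the protein, and the ATG12, ATG5 and ATG16 proteins help to join it to phosphatidylethanolamine in the growing membrane. There ATG8 shapes the autophagosome and binds receptors such as NBR1 that bring cargo, and part of it is degraded in the vacuole with the cargo. In leaves autophagy is known for recycling cell material in darkness, starvation and senescence, with the SnRK1 kinase promoting and the TOR kinase restraining it.

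The ends of the coding sequences show how the members differ in this trimming step. The last 45 bases of the longest annotated coding sequence of each gene are given 5′ to 3′, in RefSeq annotation of TAIR10.1, with the codon of the conserved glycine in capitals and the stop codon last.
ATG8A: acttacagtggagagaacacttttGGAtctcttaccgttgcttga
ATG8B: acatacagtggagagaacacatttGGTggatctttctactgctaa
ATG8C: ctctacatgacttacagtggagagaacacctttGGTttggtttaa
ATG8D: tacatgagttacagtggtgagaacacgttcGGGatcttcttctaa
ATG8E: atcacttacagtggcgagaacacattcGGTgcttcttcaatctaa
ATG8F: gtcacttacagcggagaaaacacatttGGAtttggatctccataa
ATG8G: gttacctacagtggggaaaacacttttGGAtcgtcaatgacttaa
ATG8H: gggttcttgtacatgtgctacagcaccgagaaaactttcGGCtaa
ATG8I: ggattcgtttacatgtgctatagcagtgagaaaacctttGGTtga
ATG8H and ATG8I ended on the glycine codon itself, with 0 codons between it and the stop. The other 7 had between 2 codons (ATG8C) and 5 codons (ATG8A and ATG8B) after it. ATG8E, ATG8F and ATG8G each had 4.

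The same division ran through the whole coding sequence. Among ATG8A to ATG8G the identity of aligned bases lay between 65.9% and 84.5% over 21 pairs, with a median of 72.5%. Between these 7 genes and ATG8H or ATG8I it lay between 56.3% and 62.4% over 14 pairs, and ATG8H and ATG8I shared 67.8%. The closest pair was ATG8A with ATG8B at 84.5%, and ATG8E was closest to ATG8G at 78.1%. ATG8A and ATG8B were also the only pair of the 36 whose transcripts shared an exact run of more than 50 bases, a run of 53. Neither the read length nor the treatment of reads that fit several genes is known here, so the split between these 2 genes is the least certain.

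**Figure D1:**
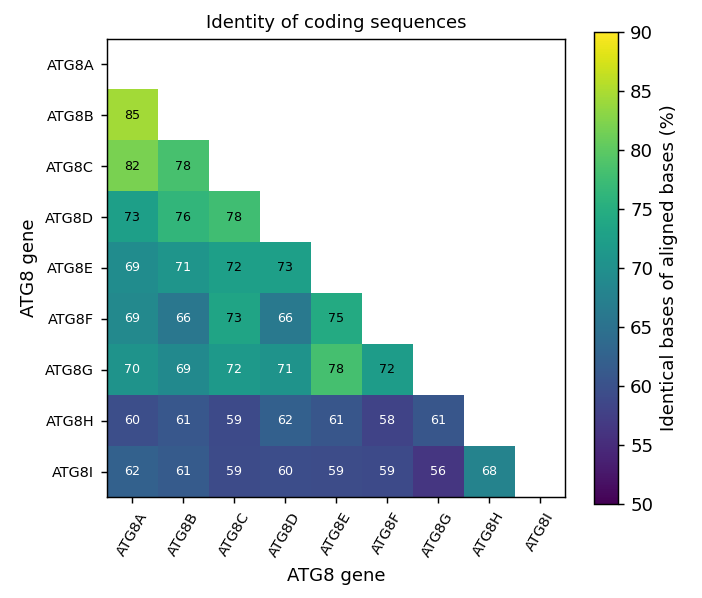
Percentage of identical bases among aligned bases for each pair of ATG8 coding sequences, with genes on both axes and the rounded value in each cell. The 2 rows for ATG8H and ATG8I are the darkest, at 56.3% to 62.4% with the other 7 genes and 67.8% with each other.

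In the coordinates that the authors used, TAIR9 by the submitters' processing notes, the family lies on 4 chromosomes. Chromosome 4 holds ATG8A (AT4G21980), ATG8B (AT4G04620, 2328449 to 2330200) and ATG8F (AT4G16520, 9306663 to 9308462). Chromosome 3 holds ATG8G (AT3G60640, 22415835 to 22417158), ATG8H (AT3G06420, 1954990 to 1956397) and ATG8I (AT3G15580, 5273895 to 5275095). ATG8D (AT2G05630, 2082986 to 2084882) and ATG8E (AT2G45170, 18624264 to 18625717) are on chromosome 2, and ATG8C (AT1G62040, 22932901 to 22934439) is on chromosome 1. RefSeq annotates 4 to 7 exons per gene, and each value is for the whole gene without separating exons, introns or untranslated regions. RefSeq uses the symbol APG8H for ATG8I and lists AUTOPHAGY 8H among its synonyms. ATG8A is listed with the span 11655589 to 11659105, which the table gives in the same form to APR3 (AT4G21990), a gene of sulfate assimilation on the other strand. The annotated genes overlap by 27 bases in RefSeq. APR3 had 56.6, 61.4 and 58.3 FPKM at 0, 20 and 60 s, and since strand handling is not given, reads of the shared stretch cannot be told apart.

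All 9 ATG8 genes were expressed in the shoots at every exposure and all passed the minimum mean of 5 FPKM that was set for ratios. FPKM is scaled by transcript length, so levels of different genes can be set side by side. ATG8F was the most abundant member at 151, 173 and 194 FPKM at 0, 20 and 60 s, a mean higher than that of 94.5% of the 13946 genes that passed. ATG8E followed at 70.1, 110 and 114 FPKM. These 2 genes made up 48.0%, 52.5% and 54.2% of the summed ATG8 FPKM.

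A middle group followed in the order ATG8I, ATG8A, ATG8C and ATG8D. ATG8I had 55.4, 63.4 and 63.0 FPKM at 0, 20 and 60 s. ATG8A had 53.3, 55.8 and 54.3 FPKM. ATG8C, at 50.0, 49.9 and 53.05 FPKM, was within 5 FPKM of ATG8A at 0 s and at 60 s, and no spread is available to separate them. ATG8D had 42.4, 44.0 and 43.6 FPKM.

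The low group was ATG8H, ATG8B and ATG8G. ATG8H had 14.2, 16.5 and 16.9 FPKM, ATG8B 13.0, 13.6 and 15.8 FPKM, and ATG8G 11.5, 12.9 and 13.8 FPKM at 0, 20 and 60 s. The order of these groups was the same at every exposure. The division by coding end did not follow it, and the closest sequence pairs did so only in part. ATG8H and ATG8I stood in different groups, as did ATG8A and ATG8B, and ATG8E and ATG8G. ATG8C stood in the same group as its closest gene, ATG8A (81.9%), and ATG8D as its closest, ATG8C (77.8%). ATG8F was closest to ATG8E (74.5%), the other of the most abundant members.

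**Figure D2:**
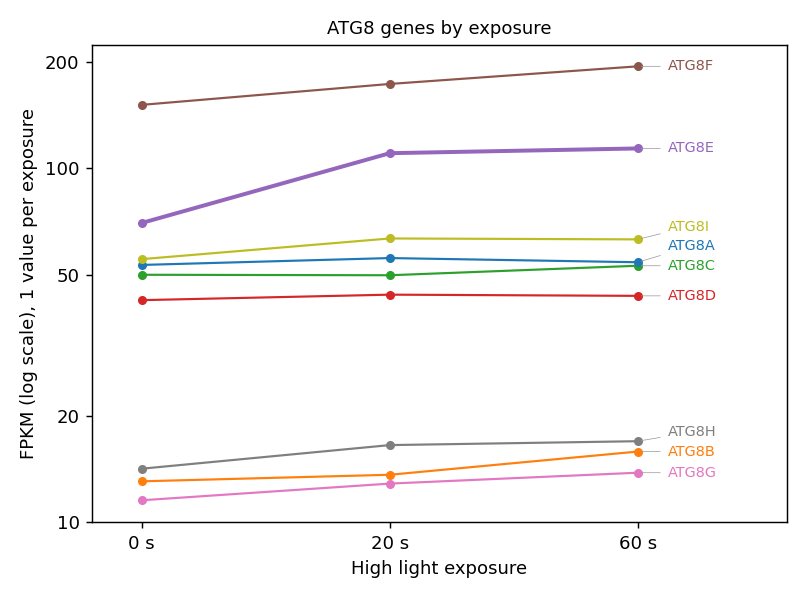
FPKM of each ATG8 gene on a log scale against exposure to high light, with 1 deposited value per point and no error available. ATG8E stands at 70.1, 110 and 114 FPKM at 0, 20 and 60 s, the steepest of the 9 lines up to 20 s.

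The first comparison asked what differed after 20 s of high light. ATG8E stood at 110 FPKM at 20 s against 70.1 FPKM at 0 s, a 1.57-fold difference (log2 ratio 0.65) computed on FPKM + 1, like all ratios given here, which understates those of low genes. It was the member past a limit of 1.5-fold, so 1 of 9, and 1.79% of the 13946 genes were at least 1.5-fold higher. Its ratio was above that of 98.6% of those genes. Among genes with a mean of 50 to 200 FPKM, a window chosen after the values were seen, 2.02% passed the same limit. In bulk shoots, a difference in the share of a cell type cannot be told apart from one in RNA per cell.

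The other 8 members were below the limit at 20 s, with log2 ratios between -0.0045 and 0.21. ATG8H (16.5 against 14.2 FPKM), ATG8F (173 against 151 FPKM) and ATG8I (63.4 against 55.4 FPKM) had ratios of 0.21, 0.20 and 0.19. ATG8G followed at 0.14, and ATG8A, ATG8B and ATG8D lay at 0.06, 0.06 and 0.05. ATG8C was level at 49.9 against 50.0 FPKM. In all, 8 members were above 0 and 1 below, where 48.5% of all genes were above 0. The family median was 0.14, against -0.0045 over all genes, and the middle 95% of all genes lay between -0.29 and 0.49.

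The second comparison asked the same of 60 s, and it shares the 0 s values with the first. ATG8E stood at 114 FPKM at 60 s against 70.1 FPKM at 0 s, 1.62-fold higher (log2 ratio 0.69), and was again the 1 member past 1.5-fold. The share of all genes past that limit upward was 1.69%, or 2.16% between 50 and 200 FPKM. ATG8F was 1.28-fold higher, at 194 against 151 FPKM, with a log2 ratio of 0.36 that exceeded those of 95.7% of genes. ATG8B (15.8 against 13.0 FPKM), ATG8H (16.9 against 14.2 FPKM) and ATG8G (13.8 against 11.5 FPKM) had ratios of 0.26, 0.24 and 0.24.

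ATG8I at 0.18, ATG8C at 0.08, ATG8D at 0.04 and ATG8A at 0.02 completed the family. All 9 members were above 0, where 54.6% of all genes were, except that ATG8A and ATG8D stood at -0.0093 and -0.0043 after quantile normalization of the 3 columns. The family median was 0.24 against 0.01 over all genes.

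**Figure D3:**
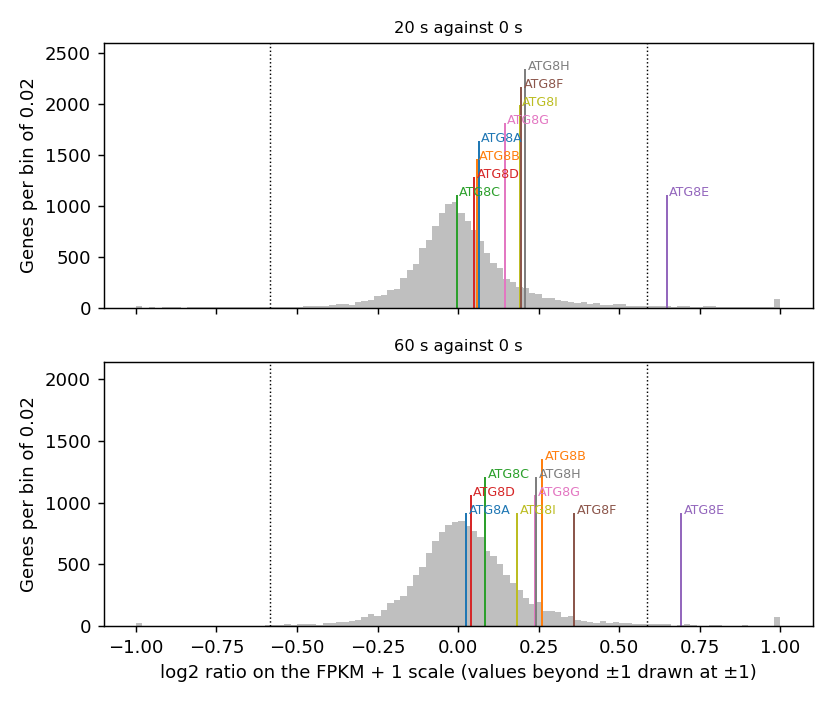
Histograms of the log2 ratio on the FPKM + 1 scale for the 13946 genes that reached a mean of 5 FPKM, with 20 s against 0 s above and 60 s against 0 s below. Coloured lines mark the 9 ATG8 genes and dotted lines the limit of 1.5-fold, and ATG8E lies beyond the right limit in both panels at 0.65 and 0.69.

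Between 60 s and 20 s the members differed little. ATG8B had the highest ratio, at 15.8 against 13.6 FPKM (log2 ratio 0.20), and ATG8F the next, at 194 against 173 FPKM (0.16). ATG8E stood at 114 against 110 FPKM (0.04). Its difference from 0 s was 40.3 FPKM at 20 s and 43.7 FPKM at 60 s, so most of it was present at the shorter exposure. ATG8A was the lowest at 54.3 against 55.8 FPKM (-0.04). In total 6 members were above 0, where 57.6% of all genes were, and 0 passed 1.5-fold, which 0.545% of all genes did upward and 1.24% downward.

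Summed over the family, ATG8 transcripts stood at 461 FPKM at 0 s, 539 FPKM at 20 s and 568 FPKM at 60 s. At 20 s the sum was 17.0% above 0 s, and ATG8E supplied 51.4% and ATG8F 28.1% of the difference. At 60 s the sum was 23.3% above 0 s, with 40.7% of the difference from ATG8E and 40.1% from ATG8F. The other 7 genes together were 6.69% above 0 s at 20 s and 8.58% at 60 s. These percentages are of plain FPKM, whose sum over all genes also rose, from 817000 at 0 s to 829701 at 20 s and 858218 at 60 s. As a share of the FPKM of all genes, the family made up 0.0564%, 0.0650% and 0.0662% at 0, 20 and 60 s.

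The sequence before each gene start is shown for 3 members, namely ATG8E, the member past the limit, ATG8F, the most abundant, and ATG8C, the member nearest to no difference at 20 s. The 250 bases before the RefSeq start are given on the strand of the gene, from TAIR10.1, at chr2:18624014-18624263 (plus strand) for ATG8E, chr4:9308539-9308788 (minus strand) for ATG8F and chr1:22932510-22932759 (plus strand) for ATG8C. Capitals mark matches to the motifs named next that lie wholly inside these bases. The table's own gene start differs from that of RefSeq for ATG8A, ATG8B, ATG8C, ATG8D, ATG8F and ATG8G. The difference is largest for ATG8B, on the minus strand, at 2330200 in the table and 2330590 in RefSeq. All motif matches below rest on the RefSeq starts, and the table's starts were not searched.
ATG8E: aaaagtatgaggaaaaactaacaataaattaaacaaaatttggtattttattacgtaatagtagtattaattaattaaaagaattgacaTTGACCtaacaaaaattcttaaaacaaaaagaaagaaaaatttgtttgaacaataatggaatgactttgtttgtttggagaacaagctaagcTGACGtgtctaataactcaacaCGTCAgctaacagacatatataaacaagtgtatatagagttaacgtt
ATG8F: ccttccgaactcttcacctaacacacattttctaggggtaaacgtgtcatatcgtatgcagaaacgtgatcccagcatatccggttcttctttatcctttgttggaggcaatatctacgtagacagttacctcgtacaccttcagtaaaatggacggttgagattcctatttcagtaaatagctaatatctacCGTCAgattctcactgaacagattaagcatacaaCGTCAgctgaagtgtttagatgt
ATG8C: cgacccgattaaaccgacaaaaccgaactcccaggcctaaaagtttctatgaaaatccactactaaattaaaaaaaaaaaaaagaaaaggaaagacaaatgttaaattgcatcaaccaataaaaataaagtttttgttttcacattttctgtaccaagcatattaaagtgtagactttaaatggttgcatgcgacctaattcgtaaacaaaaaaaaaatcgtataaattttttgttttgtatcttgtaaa
Motifs were searched on both strands from 250 bases before to 50 bases after the start. They were CACGTG (the G-box), TGACG (bound by TGA factors of the bZIP class), TTGACC or TTGACT (forms of the W-box bound by WRKY factors), GATAAG (the I-box of light-regulated promoters), TATCCA (found in sugar-regulated promoters) and AAACCCT (the telo-box).

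TGACG was present in 6 of the 9 ATG8 windows, against 23.1% of 27437 protein-coding genes. ATG8I had 3 matches, ATG8E and ATG8F 2 each, and ATG8A, ATG8G and ATG8H 1 each. ATG8B, ATG8C and ATG8D had 0. At 20 s the 6 members with a match had log2 ratios between 0.06 (ATG8A) and 0.65 (ATG8E), and ATG8B, ATG8C and ATG8D stood at 0.06, -0.0045 and 0.05. ATG8A and ATG8B changed places after quantile normalization, at 0.03 and 0.05. At 60 s the members with a match stood at 0.02 (ATG8A), 0.18 (ATG8I), 0.24 (ATG8G and ATG8H), 0.36 (ATG8F) and 0.69 (ATG8E). ATG8B, ATG8C and ATG8D stood at 0.26, 0.08 and 0.04, so the ranges overlapped. ATG8A lay below ATG8B, ATG8C and ATG8D, and ATG8B lay above ATG8I, ATG8G and ATG8H. How reads were split between ATG8A and ATG8B is unknown, which is no ground for setting either value aside. Whether the motif goes with the ratios was not tested. Both matches of ATG8E, 1 of ATG8F and that of ATG8G stood in the same 8 letters, AGCTGACG, which 0.459% of all windows held. These letters were picked after the windows were read.

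The other motifs divided the family differently. TATCCA was in 5 windows (ATG8B, ATG8D, ATG8E, ATG8H and ATG8I), against 16.1% of all genes, with 4 matches in ATG8B. A W-box form was in ATG8C, ATG8E and ATG8I, against 32.4% of all genes, and GATAAG in ATG8F, ATG8G and ATG8H, against 14.6%. In ATG8H the GATAAG and TATCCA matches overlap on opposite strands. The G-box and the telo-box, held by 7.68% and 10.02% of all windows, were found in 0 members. A match is a run of letters and does not show that a factor binds there.

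The genes next to ATG8E on the chromosome had other courses. The nearest listed gene after ATG8E, AT2G45180, starts 602 bases beyond it and had 2156, 2106 and 2308 FPKM at 0, 20 and 60 s (log2 ratios of -0.03 and 0.10). The nearest gene before it was listed at 0 throughout. RGF6 (AT4G16515), a peptide growth factor gene 899 bases from ATG8F, had 12.5, 13.2 and 19.1 FPKM, with log2 ratios of 0.07 at 20 s and 0.57 at 60 s.

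Genes for the steps around ATG8 were taken from lists of the conjugation enzymes, the ATG1 kinase complex, the membrane proteins ATG9, ATG2 and ATG18, and the phosphatidylinositol 3-kinase complex. Of 33 genes, 29 passed the minimum mean, and none of these exceeded 36.3 FPKM as a mean over the exposures. ATG18C passed only through its values at 20 s and 60 s. At 20 s against 0 s 16 were above 0 and 13 below (median 0.09), near the share of 48.5% over all genes. At 60 s against 0 s 24 were above 0 and 5 below (median 0.16), where 54.6% of all genes were above. Between 60 s and 20 s 27 were above 0 and 2 below (median 0.09), where 57.6% of all genes were above. None passed 1.5-fold in either direction, which 1.79% of all genes did upward and 0.502% downward at 20 s, and 1.69% and 0.423% at 60 s.

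Among the 9 conjugation genes the highest ratio was that of ATG4A (AT2G44140), which encodes a protease that trims ATG8. It had 12.2, 17.4 and 18.0 FPKM at 0, 20 and 60 s, which put its log2 ratios against 0 s at 0.48 and 0.53, just under the limit of 0.58. Its ratio between 60 s and 20 s was 0.05. Its locus overlaps another listed gene. The related ATG4B had 17.6, 17.5 and 18.0 FPKM.

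ATG12A, the ubiquitin-like partner of ATG5, was the next at 19.3, 21.8 and 24.4 FPKM (0.17 and 0.32). ATG5 had 12.5, 13.5 and 15.9 FPKM (0.11 and 0.32). The activating enzyme ATG7 (7.89, 7.59 and 7.81 FPKM) and ATG12B (6.92, 6.33 and 6.55 FPKM) were the lowest, and ATG12B had ratios of -0.11 and -0.07. Between 60 s and 20 s, ATG10 had -0.11 and ATG16 0.01.

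In the ATG1 complex, which starts autophagosome formation, 7 of 8 genes passed the minimum, with 3 above and 4 below 0 at 20 s against 0 s, near the 48.5% of all genes, and 7 above at 60 s against 0 s, where 54.6% of all genes were. The regulatory subunit gene ATG13A had 10.09, 11.5 and 13.2 FPKM (log2 ratios 0.17 and 0.36), ATG11 11.5, 13.0 and 14.5 FPKM (0.17 and 0.31) and ATG101 14.8, 16.0 and 18.7 FPKM (0.10 and 0.32). The kinase genes differed less. ATG1A had 15.5, 14.4 and 15.6 FPKM, ATG1T 8.33, 7.68 and 8.59 FPKM and ATG1B 6.16, 6.03 and 6.62 FPKM.

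Of the 10 genes of membrane delivery 8 passed the minimum, and their medians against 0 s were 0.07 at 20 s and 0.16 at 60 s. ATG18C had 4.31, 5.36 and 5.53 FPKM (0.26 and 0.30). It reached the minimum mean only through its values at 20 s and 60 s, and its locus overlaps another listed gene. ATG18B (0.23 at 20 s) and ATG18A (0.22 at 60 s) followed, and ATG9 (9.69, 9.20 and 9.61 FPKM) with ATG18H (9.08, 8.62 and 9.82 FPKM) was lowest at 20 s. ATG2 stood at 10.9, 11.1 and 11.5 FPKM, and ATG18G had the highest ratio of the list between 60 s and 20 s (0.21).

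In the phosphatidylinositol 3-kinase complex 5 of 6 genes passed. VPS15 had 8.03, 9.06 and 9.80 FPKM (0.16 and 0.26) and ATG6 16.4, 17.6 and 18.8 FPKM (0.09 and 0.18). VPS38 (10.03, 9.10 and 9.41 FPKM) had the lowest ratios to 0 s, -0.13 and -0.08. Next to it came ATG14B (14.3, 13.6 and 15.1 FPKM) at 20 s, with -0.07, and the kinase VPS34 (20.5, 20.2 and 20.4 FPKM) at 60 s, with -0.0046.

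Of 12 genes for proteins that bind ATG8 or act with it, 11 passed the minimum. At 20 s against 0 s 9 were above 0 and 2 below (median 0.10), where 48.5% of all genes were above. At 60 s 7 were above and 4 below (median 0.04), near the 54.6% of all genes. The cargo receptor NBR1 had 96.6, 104 and 104 FPKM (0.10 in both comparisons). The ATG8-interacting proteins ATI1 and ATI2, which act in the transport of plastid material, had 33.5, 36.7 and 41.9 FPKM and 35.9, 40.7 and 42.1 FPKM, with ratios of 0.31 and 0.22 at 60 s.

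The exocyst subunit EXO70B2 took another course, at 17.9, 23.0 and 15.0 FPKM (log2 ratios of 0.34 and -0.24, and of -0.58 between 60 s and 20 s), and EXO70B1 had 23.9, 28.0 and 25.9 FPKM. SH3P2 (15.8, 15.1 and 16.3 FPKM) and C53 (13.3, 13.0 and 13.6 FPKM) were lowest at 20 s, and the proteasome receptor RPN10 (75.6, 79.2 and 74.3 FPKM) was next to lowest at 60 s.

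In the TOR complex, which restrains autophagy, 3 of 5 genes passed the minimum. RAPTOR1B had 19.6, 20.5 and 23.6 FPKM (0.06 and 0.26), TOR 13.7, 13.7 and 15.4 FPKM (0.00 and 0.15) and LST8-1 44.9, 46.0 and 47.0 FPKM.

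Of 8 markers of darkness and sugar starvation, 5 passed the minimum mean. ASN1 and SEN1 did so only through their values at 20 s and 60 s. All 5 were above 0 against 0 s, where 48.5% of all genes were at 20 s and 54.6% at 60 s. The medians of the 5 were 1.44 at 20 s and 1.39 at 60 s. These medians rest on the minimum level, and over all 8 they were 0.46 and 0.27, with DIN9 at -0.11 at 20 s. They had been seen to differ in these data before the list was drawn up, so their direction is no independent evidence. ASN1 (asparagine synthetase) had 4.15, 13.5 and 19.1 FPKM, DIN10 44.0, 139 and 117 FPKM, and SEN1 4.01, 12.6 and 22.7 FPKM. These 3 passed 1.5-fold in both comparisons, with log2 ratios between 1.39 and 2.25, where 1.79% of all genes did at 20 s and 1.69% at 60 s. DIN3 (13.1, 14.9 and 15.8 FPKM) and DIN4 (15.1, 17.2 and 18.8 FPKM), of branched-chain amino acid breakdown, had ratios between 0.17 and 0.30, below that of ATG8E.

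**Figure D4:**
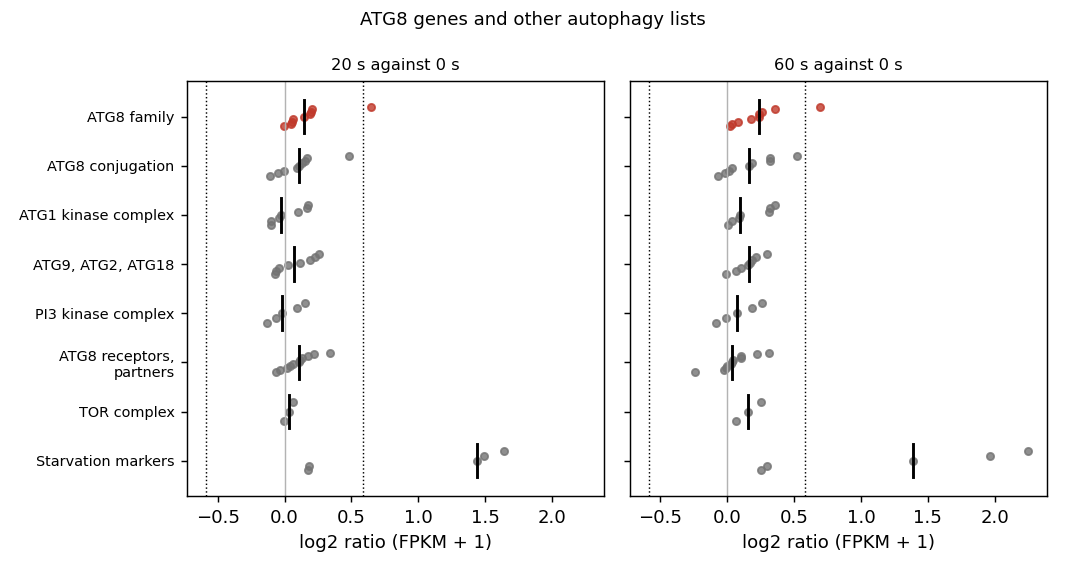
log2 ratios on the FPKM + 1 scale for each gene that reached a mean of 5 FPKM (points) and the list median (bar), for 20 s against 0 s on the left and 60 s against 0 s on the right, with dotted lines at 1.5-fold. Outside the starvation markers, ATG8E is the point beyond a dotted line, at 0.65 and 0.69, and the nearest to it is ATG4A at 0.48 and 0.53.

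Likeness of course was measured as the distance between the pairs of log2 ratios at 20 s and 60 s against 0 s, over 3 exposures and 13914 other genes above 0 at every exposure. For ATG8E 13 genes lay within 0.1, and the nearest 3 were AT1G27290 (55.1, 86.2 and 90.7 FPKM, distance 0.020), OFP15 (8.91, 14.4 and 15.2 FPKM, 0.024) and TPS10 (8.45, 14.1 and 14.5 FPKM, 0.035). For ATG8F 270 genes lay within 0.1, led by LARP1a (22.8, 26.2 and 29.6 FPKM, 0.0038), AT1G15350 (0.0071) and AT3G49640 (0.0080).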

How the data were processed

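RNA of shoots at 3 exposures was measured, and the authors deposited FPKM values, 1 for each gene at each exposure. TopHat, Bowtie, Cufflinks and the TAIR9 build are listed in the submitters' processing notes. Versions, strand handling, normalization between exposures and how the 3 pools were combined are not stated in the sources read here. Depth is unknown, so no interval was computed.

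Each column was matched to its exposure by name, and 0 value columns were left unmapped. Per-pool values would have been tested with limma. With 1 value per exposure, log2((x + 1)/(y + 1)) was computed without a test for the 13946 genes that reached a mean of 5 FPKM, and 1.5-fold was the limit. The step was run on simulated data, with planted effects larger than the limit and only in genes of higher level. That run checked the arithmetic and not how reliable a 1.5-fold difference is in these data. Starts were shifted by 1 to count from 1.

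All 9 members are named, and in each other list the 2 highest and 2 lowest ratios per comparison, others being added after their values were seen. Members, lists, limits and motifs were chosen with earlier results of these data known. RefSeq (TAIR10.1) matched 32690 of 33473 identifiers (97.7%), all 9 members and all 67 list entries by locus, and gave the symbols and sequences. Coding sequences were aligned globally in pairs with Biopython 1.88. Python 3.11.15, pandas 2.3.3, numpy 2.4.6 and matplotlib 3.10.9 were used.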

Additional observations from a re-analysis of the deposited data

How the results depend on the processing

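No paired analysis was possible because the table holds 1 value per exposure, and for the same reason no replicate could be left out. The value of a member was recomputed 186 times under other pseudocounts, minimum levels, centring, quantile normalization and for loci overlapping no other, and stayed within 0.1 on the log2 scale in 186. The minimum levels and the overlap setting only drop genes and cannot change a member's ratio, so that part of the agreement was fixed in advance. Several of the ratios were themselves smaller than 0.1. ATG8E kept ratios of 0.62 to 0.65 at 20 s and 0.65 to 0.70 at 60 s. The sign changed in 3 cases, namely ATG8A and ATG8D at 60 s under quantile normalization and ATG8C at 20 s under centring, each within 0.01 of 0. With a 2-fold limit, 0 members passed in either comparison with 0 s, and with a limit of 0.32 on the log2 scale 2 passed at 60 s. The shares of all genes past these other limits were not computed, so the counts cannot be set against them. Without ATG8E, an alternative added after the values were seen, 0 passed at 20 s and 0 at 60 s, the family medians were 0.10 and 0.21, and the sums were 391, 429 and 455 FPKM at 0, 20 and 60 s. Without ATG8A, whose locus overlaps another, the sums at 0 s and 20 s were 408 and 484 FPKM. Rescaled to 1000000 FPKM per exposure, the sums of all members were 564, 650 and 662. The median of the starvation markers at 20 s against 0 s was 1.44, and it was 1.63 with a pseudocount of 0.1, 0.97 with 5, 0.56 at a mean of at least 1 FPKM and 0.46 with no minimum. At 60 s against 0 s it was 1.39, and it was 0.30 at a mean of at least 1 FPKM, 0.27 with no minimum and 1.68 without overlapping loci. At 60 s against 20 s it was 0.27 without overlapping loci. The TOR complex median at 60 s against 20 s was 0.030 with no minimum, against 0.15. How far any of these values would vary between pools is unknown.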
